A study of Homo sapiens with 6 samples.

Results

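The genes described are 10 members of the interleukin-6 (IL-6) cytokine system: the ligands IL6, LIF, CLCF1 and IL11, the receptors IL6R, LIFR, OSMR and IL6ST, and the feedback genes SOCS3 and BCL3. They were chosen by gene symbol from a table of 58884 genes, and each symbol had 1 row. RNA was sequenced from DBTRG, an established human glioblastoma cell line labelled wild type, after 5 days in a soft gel (3D) or on a rigid dish (2D), with 3 libraries per group. The gel's material is not given in the labels. All libraries came from 1 cell line, and the labels do not say whether replicates were separate cultures, so the p-values rest on differences among 3 libraries a group that may be technical repeats.

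Cytokines of this family signal through gp130, the shared receptor chain encoded by IL6ST. IL-6 and IL-11 first bind their own alpha receptors, encoded by IL6R and IL11RA, and the complex then pairs gp130 with itself. LIF and oncostatin M use gp130 paired with the LIF receptor, and oncostatin M also uses gp130 paired with OSMR. The cardiotrophin-like cytokine encoded by CLCF1 uses gp130 and the LIF receptor together with an alpha receptor encoded by CNTFR. The receptors activate JAK kinases, which phosphorylate STAT3. STAT3 then raises SOCS3, whose product binds gp130 and JAK kinases and dampens the signal. BCL3, an atypical member of the IκB family that modifies NF-κB transcription, is a known STAT3 target. In glioma, IL-6 and LIF are known for autocrine STAT3 signalling and for maintenance of stem-like cells.

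In soft gel, the IL-6 alpha receptor gene IL6R was about 2.48-fold higher than on the rigid dish, from a low level. The oncostatin M receptor gene OSMR was at 0.719 of its rigid dish level and BCL3 at 0.429. The shared receptor gene IL6ST, the LIF receptor gene LIFR and the ligands LIF, CLCF1 and IL11 did not pass the test, nor did SOCS3. IL6 itself was near the detection limit in both groups. Of the 9 members with enough counts to test, 1 was higher and 2 were lower by edgeR's quasi-likelihood test (Benjamini-Hochberg adjusted p below 0.05, adjusted over all 16098 genes tested). The same test called 28.6% of all tested genes, 15.4% higher and 13.2% lower in soft gel, so the members' share of 3 in 9 was near the background. The groups did not overlap for 5 of the 9 members, 1 above and 4 below, against 44.6% of all tested genes, 23.5% above and 21.1% below. The median log2 fold change was 0.04 for the members and 0.05 for all tested genes. In bulk RNA, a change in the number of cells of a type and a change of RNA per cell cannot be told apart.

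The share of all tested genes called varied with the processing, and the members' calls named under an alternative can be read against it. It was 18.9% with no low-count filter, 31.1% with a filter of 1 CPM in 3 libraries, 29.3% with DESeq2 size factors, 28.6% with upper quartile factors and with DESeq2, and 27.5% with limma-voom. On log2(TPM + 1) and log2(TPM + 0.1) it was 14.4% and 14.2%, and with a replicate block 40%. Leaving out soft gel 1, 2 or 3 gave 11.9%, 11% and 32.2%, and leaving out rigid dish 1, 2 or 3 gave 37.2%, 12.2% and 19.1%.

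**Figure D1:**
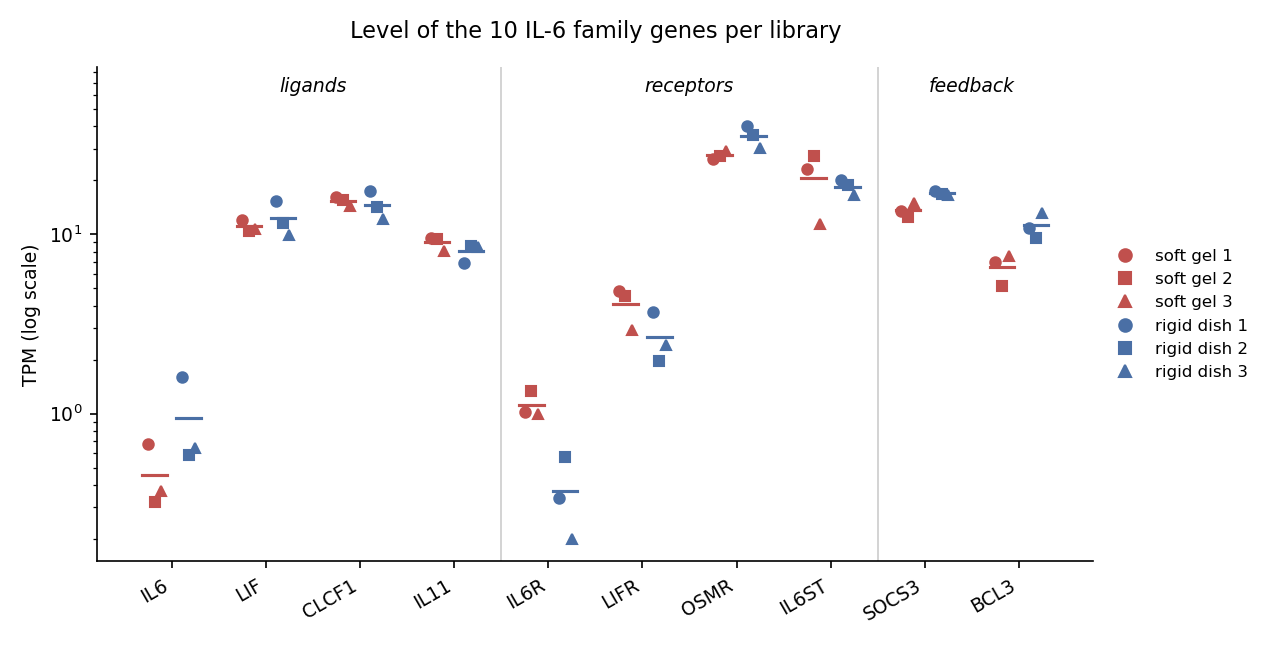
TPM (a level corrected for gene length) of the 10 genes in each library on a log axis, with soft gel (red) left of rigid dish (blue); each point is 1 library and each line the mean of 3. OSMR has the highest mean in both groups, IL6R lies higher in soft gel, BCL3 lies lower, and soft gel 3 lies below the other soft gel libraries for IL6ST and LIFR.

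The promoters of the 3 called members are shown because the genes moved in opposite directions. RefSeq windows (GRCh38.p14) of 300 bases, 250 before to 50 after a gene's start, were found for 8 members, with several starts for LIFR and SOCS3. Capitals mark matches on either strand to an AP-1 motif (TGANTCA) or a C/EBP motif (TTGCNNAA), and no marked matches overlap. A STAT motif (TTCNNNGAA) and a κB motif (GGGA and TTCC with 2 bases between them) were also searched, and their letters are not in these 3 windows. The IL6R window lies at chr1:154405093-154405392 and that of OSMR at chr5:38845762-38846061, both on the plus strand, and that of BCL3 at chr19:44748458-44748757, plus strand.
IL6R: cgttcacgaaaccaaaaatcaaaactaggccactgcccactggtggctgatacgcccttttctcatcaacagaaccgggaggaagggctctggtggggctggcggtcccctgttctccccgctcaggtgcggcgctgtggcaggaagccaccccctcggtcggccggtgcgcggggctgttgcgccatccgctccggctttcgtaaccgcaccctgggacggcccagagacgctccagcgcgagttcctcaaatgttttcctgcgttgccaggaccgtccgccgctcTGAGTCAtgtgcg
OSMR: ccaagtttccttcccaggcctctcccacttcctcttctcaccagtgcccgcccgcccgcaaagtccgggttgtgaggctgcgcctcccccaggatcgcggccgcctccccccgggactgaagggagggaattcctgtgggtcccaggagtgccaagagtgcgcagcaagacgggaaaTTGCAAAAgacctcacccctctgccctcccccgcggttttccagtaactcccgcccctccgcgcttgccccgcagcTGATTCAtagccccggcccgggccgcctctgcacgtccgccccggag
BCL3: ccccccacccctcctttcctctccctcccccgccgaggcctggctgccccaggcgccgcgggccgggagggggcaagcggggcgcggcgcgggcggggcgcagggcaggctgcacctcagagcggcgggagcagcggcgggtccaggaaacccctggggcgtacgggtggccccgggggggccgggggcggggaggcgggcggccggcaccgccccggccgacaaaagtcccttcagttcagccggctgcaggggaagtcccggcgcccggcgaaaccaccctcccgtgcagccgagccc

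IL6R and OSMR, which moved in opposite directions, each held 1 AP-1 match just after the start. The AP-1 letters were in 3 of 11 member windows and in 7.71% of all 35116 windows of that length. C/EBP letters were in 3 of 11 member windows and 10.5% of all windows, STAT letters in 2 of 11 (both LIFR) and 7.66%, and κB letters in 1 of 11 (IL6) and 1.61%. A match is a description of these letters and not a bound site.

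Among the ligands, IL6, which encodes IL-6, had 10, 5 and 3 counts in soft gel libraries 1 to 3, against 25, 5 and 7 counts in rigid dish libraries 1 to 3. As TPM this was 0.68, 0.32 and 0.37 in soft gel and 1.6, 0.59 and 0.64 on the rigid dish. The groups overlapped, and rigid dish 1 was the highest library. IL6 (ENSG00000136244, hg38 chromosome 7, 22725884 to 22732002, plus strand) fell under the low-count filter in the main fit and was not tested there. With no filter edgeR gave -1.01 on the log2 scale with an SE of 0.705 (adjusted p = 0.383). IL6 passed the filter without soft gel 2, soft gel 3, rigid dish 2 or rigid dish 3. These fits gave -1.31 to -0.75 (edgeR adjusted p = 0.234 to 0.536), and DESeq2 gave -1.02 (adjusted p = 0.433). A count of 0 allows up to 3 counts, or 0.112 to 0.141 CPM (counts scaled to library size with TMM factors). No difference in IL6 was detected, with few counts per library and a wide spread among the rigid dish libraries.

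LIF, which encodes leukaemia inhibitory factor, had 28.7, 27.6 and 23.7 CPM in soft gel, against 37.5, 33.2 and 31.0 CPM on the rigid dish. All 3 soft gel libraries were below the lowest rigid dish library in CPM, whereas the groups overlapped in TPM. The difference for LIF (ENSG00000128342, chromosome 22, 30240447 to 30246851, minus strand) was -0.35 on the log2 scale, with an SE of 0.132, and did not pass (edgeR adjusted p = 0.0752). It passed under 3 of the alternatives run, among them DESeq2 (adjusted p = 0.0385) and DESeq2 size factors (0.0484). Its log2 fold change was -0.12 on log2(TPM + 1), with limma adjusted p = 0.71. The authors' deposited table gives LIF an adjusted p of 0.0376.

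CLCF1 had 28.9, 27.1 and 27.9 CPM in soft gel, against 30.2, 21.7 and 20.1 CPM on the rigid dish. The soft gel libraries were close together and lay inside the range of the rigid dish, where library 1 was the highest. On the log2 scale edgeR gave 0.22 with an SE of 0.165 (adjusted p = 0.335), and without rigid dish 1 it gave 0.41, which passed (adjusted p = 0.0301). CLCF1 (ENSG00000175505, chromosome 11, 67364168 to 67374177, minus strand) overlaps RAD9A on the opposite strand and the gene AP003419.1 on its own strand, and its counts held decimals, so its level is uncertain. IL11 (ENSG00000095752, chromosome 19, 55364389 to 55370463, minus strand), which encodes interleukin-11, had 9.76, 8.53 and 8.63 CPM in soft gel, against 6.92, 8.79 and 8.74 CPM on the rigid dish. The groups overlapped, and edgeR gave 0.14 on the log2 scale with an SE of 0.169 (adjusted p = 0.554).

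Among the receptors, IL6R encodes the alpha receptor that gives a cell its own response to IL-6. It had 61, 77 and 43 counts in soft gel, against 34, 24 and 17 counts on the rigid dish, which was 2.51, 3.13 and 2.02 CPM against 1.27, 1.03 and 0.762 CPM. Every soft gel library was above every rigid dish library, in CPM and in TPM. IL6R (ENSG00000160712, chromosome 1, 154405193 to 154469450, plus strand) was higher by 1.31 on the log2 scale, with an SE of 0.316 (edgeR adjusted p = 0.0161). IL6R no longer passed when soft gel 1 (edgeR adjusted p = 0.058), soft gel 2 (0.0786), rigid dish 2 (0.0617) or rigid dish 3 (0.0596) was omitted, although its log2 fold change stayed between 1.07 and 1.496 over all 6 omissions.

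Leukocytes also express IL6R, and some of their markers moved with it. Of 9 leukocyte and microglia markers, 3 could be tested, and CD68 (41.1 ± 3.82 CPM in soft gel and 12.01 ± 2.54 CPM on the rigid dish, n = 3 each, ± SD) and ITGAM (1.02 ± 0.208 and 0.173 ± 0.112 CPM) were higher by edgeR. The third, CSF1R, averaged 0.412 ± 0.190 CPM in soft gel and 0.717 ± 0.271 CPM on the rigid dish (n = 3 each, ± SD), with overlapping groups, and gave -0.78 on the log2 scale (edgeR adjusted p = 0.25). The summed level of the list was 40.6 to 47.9 CPM in soft gel and 10.9 to 16.3 CPM on the rigid dish, and 2.21 to 3.29 against 0.818 to 2.17 CPM without CD68, a lysosomal protein that other cells also express. The pan-leukocyte marker PTPRC had 0.328 to 0.576 CPM in soft gel and 0.043 to 0.486 CPM on the rigid dish, and these ranges overlapped. The part of such cells in the rise of IL6R was not tested.

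OSMR encodes the chain that pairs with gp130 for oncostatin M and with IL31RA for interleukin-31. It had 84.97, 94.3 and 104.6 CPM in soft gel, against 129.9, 137.9 and 127.3 CPM on the rigid dish. The soft gel libraries were all below the rigid dish libraries, in CPM and in TPM. OSMR (ENSG00000145623, chromosome 5, 38845858 to 38945596, plus strand) differed by -0.48 on the log2 scale, with an SE of 0.114 (edgeR adjusted p = 0.0155). Without soft gel 1 (adjusted p = 0.081), soft gel 2 (0.0642) or rigid dish 2 (0.0791) edgeR no longer called OSMR, nor did limma on log2(TPM + 1), which gave -0.34 (adjusted p = 0.121). The end of OSMR overlaps RICTOR on the opposite strand, and no strand setting is stated, so reads of the shared stretch cannot be told apart. RICTOR had 885, 1021 and 526 counts in soft gel and 575, 429 and 324 counts on the rigid dish. The part of such reads in the OSMR difference was not tested.

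LIFR encodes the LIF receptor chain. It had 31.2, 30.4 and 17.3 CPM in soft gel, against 23.1, 16.1 and 17.6 CPM on the rigid dish. Soft gel 1 and 2 were above all rigid dish libraries, while soft gel 3 lay inside their range. LIFR (ENSG00000113594, chromosome 5, 38474963 to 38608354, minus strand) gave 0.47 on the log2 scale, with an SE of 0.235 (edgeR adjusted p = 0.155), and without soft gel 3 it gave 0.64 and passed (adjusted p = 0.0258).

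IL6ST, the gene of gp130, had 113.3, 113.8 and 63.4 CPM in soft gel, against 86.0, 104.9 and 91.6 CPM on the rigid dish. Soft gel 1 and 2 were the highest of the 6 libraries and soft gel 3 the lowest. IL6ST (ENSG00000134352, chromosome 5, 55935095 to 55994993, minus strand) gave 0.04 on the log2 scale, with an SE of 0.209 (edgeR adjusted p = 0.897). Without soft gel 3 it was 0.21 and did not pass (adjusted p = 0.218).

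Soft gel 3 lay nearer to the rigid dish than the other soft gel libraries for many genes. Of 5567 tested genes for which soft gel 1 and 2 both lay above all rigid dish libraries, 1789 (32.1%) had soft gel 3 at or below the highest rigid dish library. With soft gel 1 or soft gel 2 as the library left over, the same count was 418 of 4196 (9.96%) and 356 of 4134 (8.61%). The members for which soft gel 1 and 2 lay above were IL6R, IL6ST and LIFR, of which IL6ST and LIFR had soft gel 3 back in or below the rigid dish range. Of the 4 members lower in soft gel 1 and 2, none had soft gel 3 in the rigid dish range, against 22.8% of 4412 tested genes. That share was 8.79% with soft gel 1 and 8.02% with soft gel 2 as the library left over. Soft gel 3 also had the fewest counts, 20911340 of a range up to 25901465, and the part of depth was not tested.

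**Figure D2:**
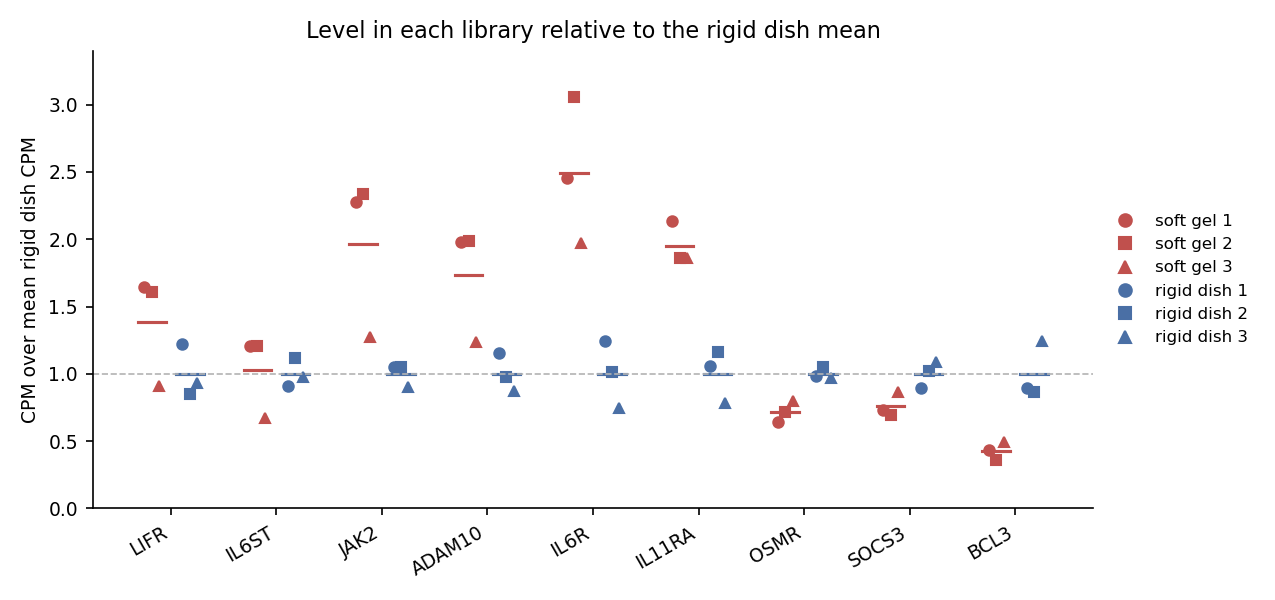
CPM of 5 receptor and 4 signalling, shedding or feedback genes in each library, divided by the mean of the 3 rigid dish libraries (dashed line at 1); red is soft gel and blue rigid dish, points are libraries and lines are means. Soft gel 3 (triangle) is nearest to the rigid dish for LIFR, JAK2, ADAM10 and IL6R and below it for IL6ST. All 3 soft gel libraries lie below the rigid dish for OSMR, SOCS3 and BCL3, where soft gel 3 is again the nearest.

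Levels of different genes can be set side by side only per length, as TPM. In soft gel the order of the members by mean TPM was OSMR (27.6 ± 1.41, SD, n = 3), IL6ST (20.5 ± 8.20), CLCF1 (15.4 ± 0.898), SOCS3 (13.6 ± 1.27), LIF (11.1 ± 0.870), IL11 (9.003 ± 0.806), BCL3 (6.55 ± 1.26), LIFR (4.09 ± 1.02), IL6R (1.12 ± 0.185) and IL6 (0.457 ± 0.195). On the rigid dish it was OSMR (35.4 ± 4.78), IL6ST (18.4 ± 1.80), SOCS3 (16.9 ± 0.462), CLCF1 (14.5 ± 2.62), LIF (12.2 ± 2.81), BCL3 (11.2 ± 1.83), IL11 (8.003 ± 0.957), LIFR (2.68 ± 0.879), IL6 (0.943 ± 0.569) and IL6R (0.37 ± 0.187). OSMR and IL6ST overlapped in soft gel and not on the rigid dish. CLCF1 and SOCS3 overlapped in both groups. IL6R was above IL6 in soft gel and below it on the rigid dish, both at low levels, and the ranges of these genes did not overlap in either group. On the rigid dish they nearly met in rigid dish 2, with IL6 at 0.59 TPM (5 counts) and IL6R at 0.57 TPM (24 counts). The order of these genes there is thus uncertain.

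Ratios of TPM within a library describe the balance of receptor and ligand RNA without scaling between libraries, and protein was not measured. OSMR over LIFR was 5.48, 5.99 and 9.94 in soft gel, against 10.9, 18.3 and 12.6 on the rigid dish. Every soft gel library was below every rigid dish library, with soft gel 3 the nearest. IL6R over IL6ST was 0.0444, 0.0489 and 0.0878 in soft gel, against 0.0170, 0.0304 and 0.0121 on the rigid dish, so IL6R RNA stayed far below IL6ST RNA in both groups. In soft gel 3, which had the highest ratio, IL6R (1 TPM) and IL6ST (11.4 TPM) were each the lowest of the soft gel libraries. LIF over LIFR was 2.50, 2.28 and 3.67 in soft gel and 4.19, 5.85 and 4.08 on the rigid dish. OSMR over IL6ST was 1.15, 0.999 and 2.56 in soft gel and 1.99, 1.91 and 1.84 on the rigid dish, where soft gel 1 and 2 lay below the rigid dish range and soft gel 3 above it. These ratios are descriptions and were not tested.

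**Figure D3:**
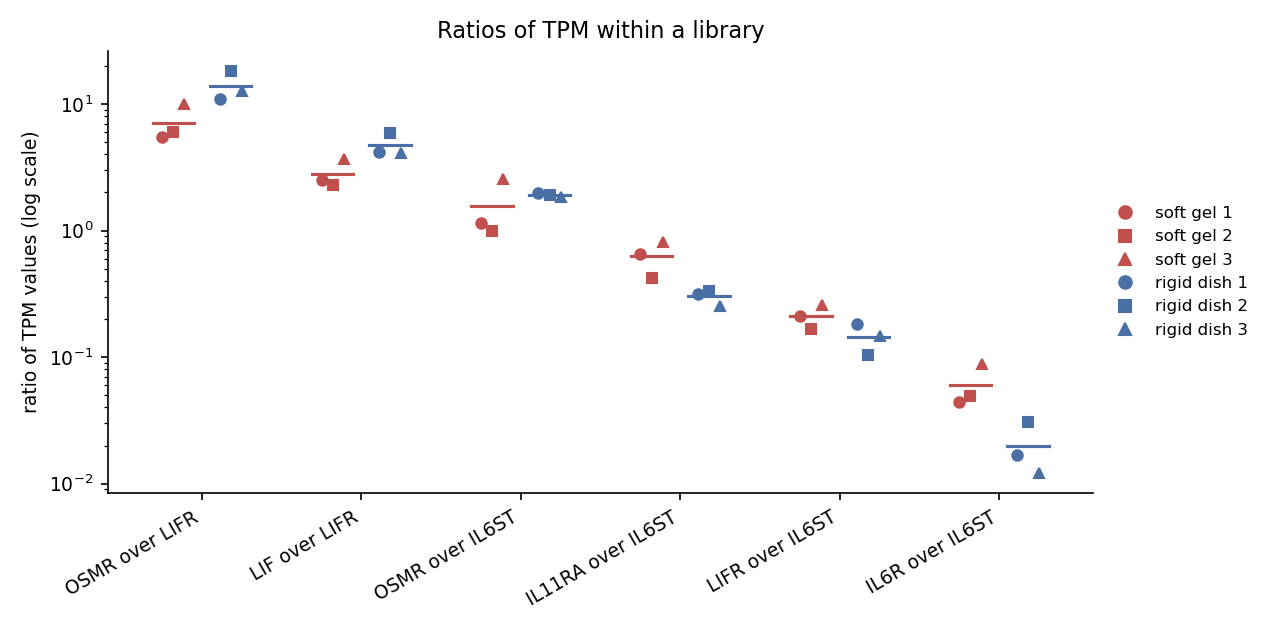
Ratios of the TPM of 2 genes within each library on a log axis, with soft gel (red) left of rigid dish (blue); points are libraries and lines are means of 3. The groups do not overlap for OSMR over LIFR and LIF over LIFR, lower in soft gel, or for IL11RA over IL6ST and IL6R over IL6ST, higher in soft gel.

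Of the feedback genes, SOCS3 had 23.7, 22.7 and 28.2 CPM in soft gel, against 29.1, 33.2 and 35.3 CPM on the rigid dish. Every soft gel library was below every rigid dish library, although soft gel 3 and rigid dish 1 nearly met. SOCS3 (ENSG00000184557, chromosome 17, 78356778 to 78360077, minus strand) gave -0.39 on the log2 scale, with an SE of 0.138, and missed the threshold (edgeR adjusted p = 0.0603). It passed without rigid dish 1 (adjusted p = 0.0253), without soft gel 3 (0.0191), with no low-count filter (0.0385) and with DESeq2 (0.0362). The authors' deposited table gives an adjusted p of 0.0357 and does not mark SOCS3 as significant.

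BCL3 had the largest absolute change among the tested members after IL6R and the lowest adjusted p. It had 5.10, 4.18 and 5.77 CPM in soft gel, against 10.5, 10.1 and 14.5 CPM on the rigid dish. No soft gel library reached the rigid dish range, in CPM or in TPM. BCL3 (ENSG00000069399, chromosome 19, 44747705 to 44760044, plus strand) was lower, at -1.22 on the log2 scale with an SE of 0.209 (edgeR adjusted p = 0.00422), and the call was kept on leaving out each library in turn (adjusted p = 0.00224 to 0.0263). On log2(TPM + 1) the difference was -0.69 and did not pass (limma adjusted p = 0.0631). Counts per TPM, scaled to each library's median, were 86.4%, 92.6% and 84.1% of the gene's mean in soft gel and 119%, 111% and 107% on the rigid dish. The length that the authors' TPM values imply for BCL3 was thus shorter in soft gel, and 6.60% of 15850 genes shifted by as much or more in either direction. IL6R shifted by more on average, at 96.8%, 89.1% and 74.0% in soft gel and 154%, 63.5% and 123% on the rigid dish, but with overlapping groups, so its TPM values and ratios carry this spread. For SOCS3 the measure was between 99.6% and 100.3% in every library. BCL3 was the only member that the authors' deposited table marks as significant, with a log2 fold change of -1.16. The same table gives adjusted p-values below 0.05 for IL6R (0.0127) and OSMR (0.00149), as for LIF and SOCS3, without marking these genes. Its log2 fold changes for them are smaller in size than that of BCL3. They are 0.98 for IL6R, -0.52 for OSMR, -0.39 for LIF and -0.43 for SOCS3.

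**Figure D4:**
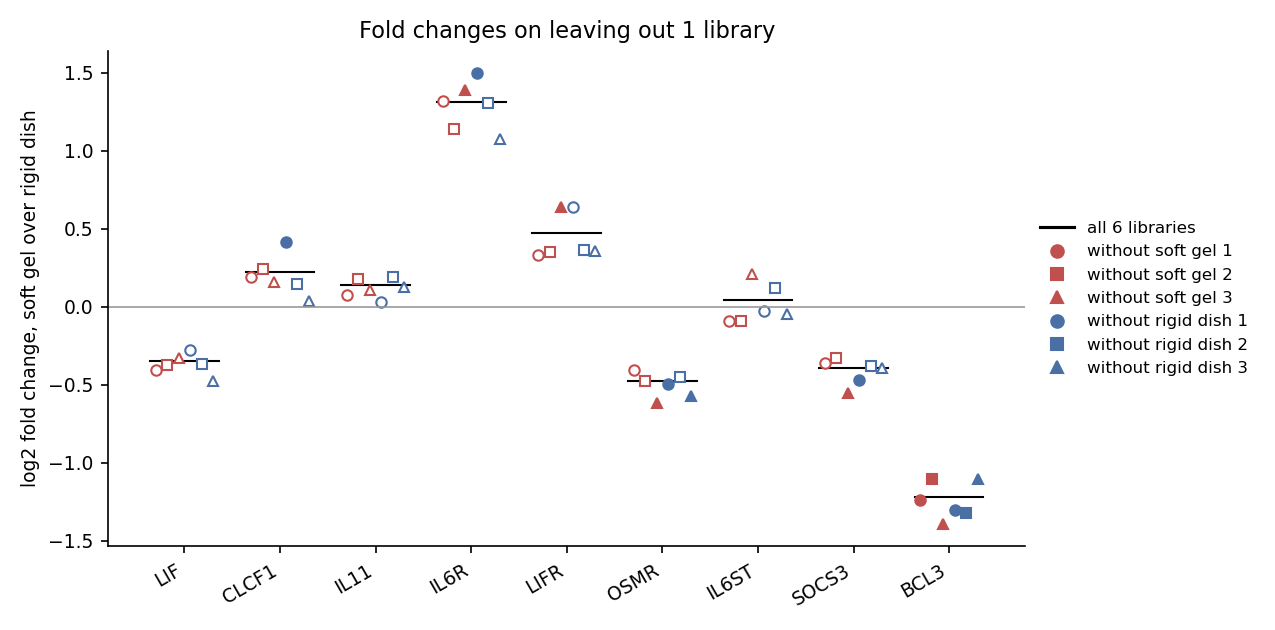
Log2 fold change of soft gel over rigid dish for the 9 tested members with all 6 libraries (black line) and on leaving out 1 library (red, a soft gel library; blue, a rigid dish library); filled symbols have an adjusted p below 0.05 and open ones do not. BCL3 is the only member with 6 filled symbols, and LIFR passes only without soft gel 3.

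The rest of the pathway was read from lists of known genes, written with earlier results of these data known, so the counts are descriptions. The counts called in each list can be read against all tested genes. Of these, 28.6% were called, 15.4% higher and 13.2% lower in soft gel, with a median log2 fold change of 0.05. Of 11 other ligands and receptors of the family, 6 had enough counts, 1 was higher and 0 were lower by edgeR (1 and 1 at an unadjusted p below 0.05; DESeq2 called 1). The risen gene was IL11RA, the alpha receptor of interleukin-11, at 11.8, 10.3 and 10.3 CPM in soft gel, against 5.84, 6.42 and 4.35 CPM on the rigid dish. Every soft gel library was above every rigid dish library, as for IL6R, and edgeR gave 0.96 on the log2 scale with an SE of 0.190 (adjusted p = 0.00731). IL11RA passed under every alternative run. The ligand genes OSM and CTF1 and the receptor gene CNTFR were under the filter, and IL27 was at 0 counts in all 6 libraries.

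Of 7 JAK and STAT genes, 1 rose and 2 fell, with a median log2 fold change of -0.32. JAK2, a kinase of cytokine receptors, had 31.5, 32.3 and 17.6 CPM in soft gel, against 14.5, 14.6 and 12.5 CPM on the rigid dish (log2 fold change 0.97, edgeR adjusted p = 0.0136). Soft gel 3 was again the nearest to the rigid dish, and JAK2 did not pass without soft gel 1 (edgeR adjusted p = 0.0627), without soft gel 2 (0.0667) or on TPM values. STAT5B was lower (-0.35, edgeR adjusted p = 0.0322), but did not pass without soft gel 1 (0.124), soft gel 2 (0.1) or rigid dish 2 (0.135), and gave -0.11 on both TPM scales (limma adjusted p = 0.677 and 0.671). STAT3, the main effector, had 169.6, 167.1 and 197.9 CPM in soft gel, against 219.5, 228.5 and 222.9 CPM on the rigid dish. The groups did not overlap in CPM, whereas they overlapped in TPM. The STAT3 call was close to the threshold (-0.33, edgeR adjusted p = 0.0484), and 8 of 15 alternatives lost that call. JAK1, the main kinase of gp130, had a log2 fold change of -0.32 and did not pass (edgeR adjusted p = 0.0599).

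Of 9 genes of the SHP2 and ERK arm, which gp130 feeds beside STAT3, 1 rose and 2 fell, with a median of 0.05. The tyrosine kinase gene SRC was at 17.4 ± 2.71 CPM in soft gel and 30.1 ± 4.51 CPM on the rigid dish (n = 3 each, ± SD; log2 fold change -0.79, edgeR adjusted p = 0.00932). SRC did not pass on either TPM scale (limma adjusted p = 0.0685 and 0.0632). The adaptor gene GRB2 was also lower (-0.41, edgeR adjusted p = 0.0233), but did not pass without soft gel 1 (0.103), soft gel 2 (0.1) or rigid dish 2 (0.07), or on TPM values (limma adjusted p = 0.0942 and 0.0972). The docking protein gene GAB1 was higher (0.72, edgeR adjusted p = 0.0471), a call that was lost without any 1 of 5 libraries and kept without rigid dish 1.

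Of 14 negative regulators and receptor-shedding proteases, 12 were tested, 2 rose and 0 fell by edgeR (3 and 0 at an unadjusted p below 0.05; DESeq2 called 3). ADAM10, a protease that can shed the IL-6 receptor, was at 211.5, 211.7 and 131.8 CPM in soft gel, against 123.0, 104.2 and 92.9 CPM on the rigid dish. The groups did not overlap, with soft gel 3 the lowest in soft gel (log2 fold change 0.79, edgeR adjusted p = 0.0158). SOCS5, a relative of SOCS3, was higher (0.62, edgeR adjusted p = 0.0197), in the direction opposite to the estimate for SOCS3. ADAM10 and SOCS5 each lost the call on leaving out rigid dish 2, rigid dish 3, soft gel 1 or soft gel 2.

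Of 30 genes known as STAT3 targets or IL-6 responsive, 19 were tested, 2 rose and 7 fell, with a median of -0.44. Among all tested genes 15.4% rose and 13.2% fell, and no test of the list as a set was run. The acute phase genes LBP, FGG, FGA, SAA1, SAA2 and CRP, known as IL-6 responsive in liver, were at 0 counts in all libraries. MYC, a growth-promoting transcription factor, was at 38.1 ± 7.17 CPM in soft gel and 80.2 ± 15.02 CPM on the rigid dish (n = 3 each, ± SD; log2 fold change -1.07, edgeR adjusted p = 0.00385). BIRC5, which encodes survivin, also fell (-1.004, edgeR adjusted p = 0.00529). The AP-1 genes FOS (5.99, edgeR adjusted p = 1.38e-05) and JUNB (0.61, adjusted p = 0.0192) rose, and both are immediate early genes that respond to many other signals. FOS passed under every alternative run, whereas JUNB did not pass by edgeR without soft gel 1 (adjusted p = 0.0873), soft gel 3 (0.0544) or rigid dish 2 (0.0621).

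Of 15 genes of factors and cytokine inputs that act on IL6, 14 were tested, 1 rose and 3 fell, with a median of -0.01. TNFRSF1A, CEBPB and CEBPD are also in the list of STAT3 targets and are counted in both. NFKBIA, the NF-κB inhibitor and feedback gene, was at 23.7 ± 6.23 CPM in soft gel and 11.3 ± 0.933 CPM on the rigid dish (log2 fold change 1.07, edgeR adjusted p = 0.00626). FOSL1, an AP-1 subunit, fell (-0.87, edgeR adjusted p = 0.00169), as did the tumour necrosis factor receptor gene TNFRSF1A (-0.79, adjusted p = 0.00521). The shares called in these lists can be read against the 28.6% of all tested genes.

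**Figure D5:**
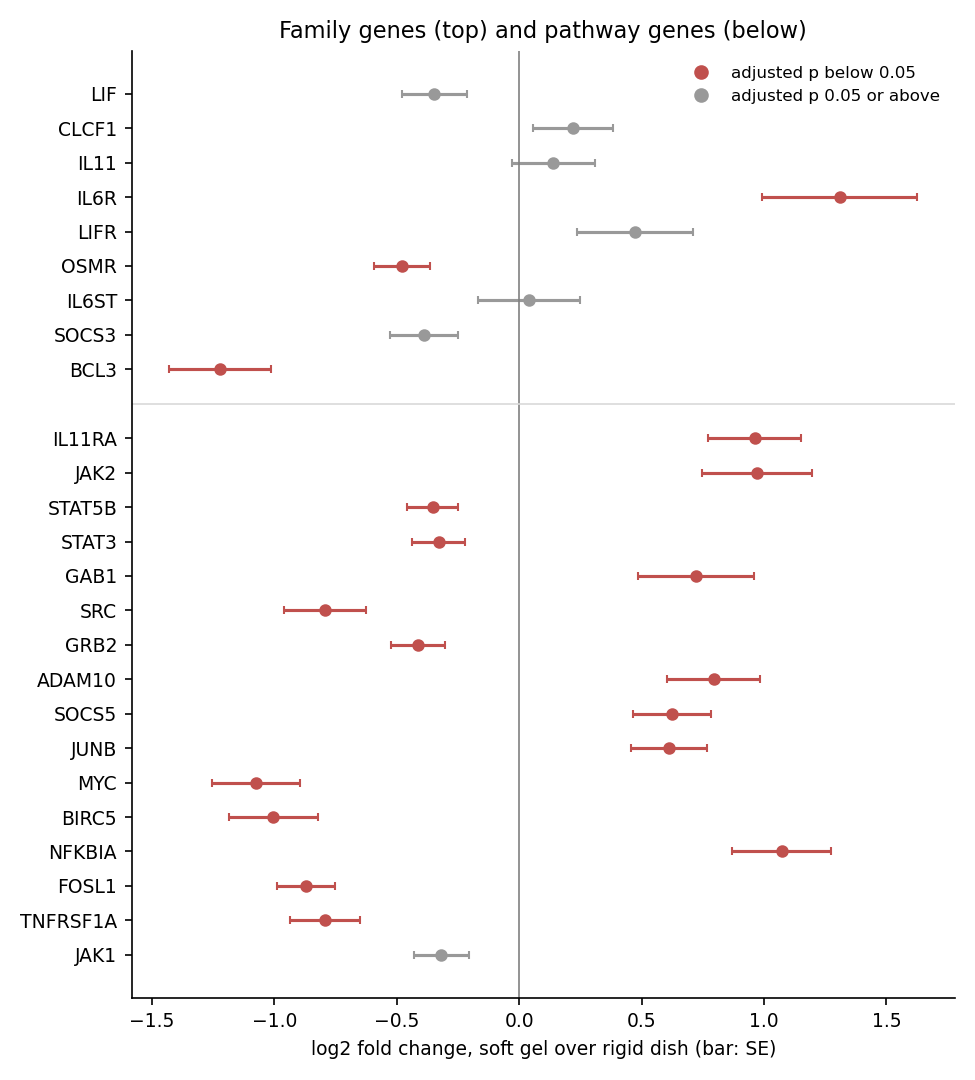
Log2 fold change of soft gel over rigid dish with its standard error for the 9 tested members (above the line) and for named pathway genes other than FOS (below the line); red points have an adjusted p below 0.05 and grey points do not. The alpha receptor genes IL6R and IL11RA lie at 1.31 and 0.96, and BCL3 lies lowest at -1.22.

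The genes whose level over the 6 libraries was most like that of BCL3, out of 9710 protein-coding genes with 10 CPM or more, were SLC44A2 (Pearson r = 0.9998 on log2 CPM), TUBG1 (0.9995), THOC5 (0.998), ARRB2 (0.997) and TRNAU1AP (0.996). All 5 were lower in soft gel by edgeR, with log2 fold changes of -0.46 to -0.79, smaller in size than that of BCL3. They are the top of a ranking over many genes and 6 libraries that share a group difference, so the values are descriptions.

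Library totals ran from 20911340 to 24135807 counts in soft gel and from 23944233 to 25901465 on the rigid dish. Across genes, which are not independent of each other, log2 CPM correlated at 0.975 to 0.987 within a group and at 0.949 to 0.969 between groups. Of 10 glioblastoma line markers 9 were tested, and edgeR called CD44 (0.33 on the log2 scale) and SOX2 (0.59) higher and VIM (-0.48), NES (-0.56) and EGFR (-0.60) lower in soft gel. GFAP was at 0.453 to 1.58 CPM in soft gel and 0.314 to 0.948 CPM on the rigid dish, and OLIG2 was at 0 counts in all libraries. The summed level of 5 endothelial markers was 3.58 to 4.26 CPM in soft gel and 2.63 to 4.45 CPM on the rigid dish, and that of 5 fibroblast and pericyte markers 4.08 to 6.78 and 5.54 to 7.53 CPM.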

How the data were processed

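HISAT2, HTSeq and the build hg38 are named, without versions, per the submitters' processing notes. The authors deposited estimated counts per gene, with decimals for 11.3% to 13.0% of genes, and TPM values, which depend on the length each gene was given. The authors also deposited their own comparison, which holds the ratio of the groups as a fold, its log2, and a raw and an adjusted p-value. The quantifier and the strand setting are not given in the sources used here.

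Counts were rounded, filtered with filterByExpr (minimum count 10), scaled by TMM and tested by quasi-likelihood in edgeR 4.0.16; limma 3.58.1 and DESeq2 1.42.0 gave the alternatives (R 4.3.3). Calls are at a Benjamini-Hochberg adjusted p below 0.05 over 16098 genes. Soft gel is the numerator of each fold change, and the standard error was taken from the test statistic. Limits from 3 counts cover counting error only. Positions came from GENCODE 29 (hg38). The pipeline was tested on simulated data. Members and lists were chosen with earlier results of these data known. Of each pathway list, up to 2 risen and 2 fallen genes with 5 CPM or more were named, with STAT3 and JAK1. Like genes of the member with the lowest adjusted p were the 5 highest by Pearson r.

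Alternatives were keeping all counted genes, keeping those at 1 CPM in 3 libraries, scaling by DESeq2 size factors or upper quartiles, testing with DESeq2 or limma-voom, testing log2(TPM + 1) or log2(TPM + 0.1) in limma, a replicate block, and leaving out each library.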

Additional observations from a re-analysis of the deposited data

How the results depend on the processing

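The number of member genes called was 3, and 1 to 5 on leaving out 1 library. It was 5 with DESeq2 and 1 on log2(TPM + 1) and on log2(TPM + 0.1). The number of all genes called, 4603, was 1803 to 6164 on leaving out 1 library (1963 without soft gel 1, 1803 without soft gel 2, 2026 without rigid dish 2), and 2313 and 2287 on the TPM values. On leaving out 1 library, the pathway counts were 0 to 4 for JAK and STAT genes, 1 to 4 for the SHP2 and ERK arm, 0 to 4 for regulators and 3 to 7 for factors that act on IL6. On both TPM scales limma called 0 JAK and STAT genes, 0 genes of the SHP2 and ERK arm, and 1 regulator. At an unadjusted p below 0.05 limma gave 1 and 0 JAK and STAT genes and 2 and 2 of the SHP2 and ERK arm on log2(TPM + 1) and log2(TPM + 0.1). Where edgeR called 0 on leaving out 1 library, 3 JAK and STAT genes (without soft gel 1 or 2) and 2 regulators (without soft gel 1 or 2 or rigid dish 2 or 3) had an unadjusted p below 0.05. IL6ST, which did not pass under any alternative, changed sign with no low-count filter (-0.028), with DESeq2 size factors (-0.0067) and with DESeq2 (-0.024), and ran from -0.092 to 0.21 on leaving out 1 library. The signs of the other tested members did not change under any alternative run. The cause of these shifts was not tested, except that leaving out a library also leaves fewer samples.

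Replicate numbers were not taken as pairs in the main fit, since the labels name no pairing. Deviations of same-numbered libraries correlated at 0.217, 0.00912 and 0.307 for replicates 1 to 3. Differently numbered libraries correlated at -0.295 (soft gel 3 with rigid dish 1) to 0.137 (soft gel 2 with rigid dish 1). The highest values were those of replicates 1 and 3, while soft gel 2 correlated best with rigid dish 1, so these values do not settle whether the numbers are pairs. With a replicate block, 6442 genes were called, 5 members (LIF and SOCS3 in addition), 2 other family genes, 5 JAK and STAT genes, 5 of the SHP2 and ERK arm and 8 factors that act on IL6, and the log2 fold change of IL6ST was -0.00026. Depth limits what can be said of IL6, which had 3 to 25 counts per library.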

Other observations

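IL31RA, the partner of OSMR in the interleukin-31 receptor, was chosen after its values were seen. It had 13.3, 15.8 and 14.3 CPM in soft gel, against 17.9, 19.3 and 18.5 CPM on the rigid dish, and every soft gel library was below every rigid dish library. Its log2 fold change was -0.36 (SE 0.134), and it did not pass (edgeR adjusted p = 0.0704). Its level per length, 8.29 ± 0.618 TPM in soft gel and 10.2 ± 1.20 TPM on the rigid dish (SD, n = 3 each), was above that of LIFR in both groups.

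NNMT, a nicotinamide-methylating enzyme and known STAT3 target, was also chosen after its values were seen. It had 0.617, 0.325 and 0.798 CPM in soft gel, against 2.62, 7.75 and 8.56 CPM on the rigid dish, and edgeR gave -3.44 on the log2 scale with an SE of 0.506 (adjusted p = 0.00239). CEBPB, a C/EBP factor that acts on the IL6 gene, had 17.5, 29.8 and 38.6 CPM in soft gel, against 14.5, 62.8 and 82.0 CPM on the rigid dish. The groups overlapped for CEBPB, and edgeR gave -0.89 on the log2 scale with an SE of 0.517 (adjusted p = 0.215). Rigid dish 1 was the lowest of the 6 libraries for CEBPB and the highest for IL6, at 25 counts, and a link was not tested.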
